A study of Mus musculus with 9 samples.

Results

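The 10 genes described here encode the granule proteins, the eosinophil-associated ribonucleases, a lipoxygenase and the surface receptors by which mouse eosinophils are recognised: Epx, Prg2, Prg3, Ear1, Ear2, Ear6, Alox15, Il5ra, Ccr3 and Siglecf. They are 10 of the 53379 gene IDs counted in each library of mouse knee joints. They were selected on their levels in these same libraries, high in Luc joints and deeply reduced in PC2 joints, so their differences between the groups are described and no test of them is given. All 10 passed the filter on low counts.

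The 9 RNA-seq libraries form 3 groups of 3. PC2 joints were operated by anterior cruciate ligament transection (ACLT), a model of osteoarthritis, in male C57BL/6 mice at 8 weeks of age, and a lentivirus expressing PC2 was put into the joint cavity 1 week later. Luc joints had the same operation and timing with a lentivirus expressing Luc, so operation and lentivirus are common to PC2 and Luc joints. Non surgery joints had no operation, and the sources used here do not state their age, sex or any injection separately. Operated joints were collected 8 weeks after the virus. Neither the promoter that drives Luc or PC2 nor the number of mice per group is stated in the sources used here. RNA of a group was mixed before the 3 libraries were made, so each group is 1 pool, and every SD, SE and p-value below measures technical spread and no difference between mice.

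Eosinophils are granulocytes that mature in bone marrow under IL-5 and leave it for tissues along eotaxin gradients sensed by CCR3. Their granules hold major basic protein (Prg2), its homologue (Prg3), eosinophil peroxidase (Epx) and cationic ribonucleases (the Ear genes), which are released onto parasites and injured tissue. A knee joint sample can hold bone marrow as well as synovium, and in bulk RNA fewer cells of a type and less RNA per cell cannot be told apart.

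Library totals over genes were 17835989 to 19004316 counts. The markers of cartilage, bone, synovium, muscle and blood were Col2a1, Acan, Col1a1, Bglap, Prg4, Acta1, Ckm and Hbb-bs. All 8 were present in every group, with the lowest group mean 28.9 CPM for Bglap in Non surgery joints. Their levels differed between Luc and Non surgery joints, where 5 rose and 3 fell (edgeR adjusted p under 0.05). Of these, 5 rose and 2 fell at least 2-fold, and the median log2 difference of the 8 was 1.39. Between PC2 and Luc joints 6 rose and 0 fell, none by 2-fold, with a median of 0.23. The part of these tissue differences in the results below was not tested. CPM means counts per 1000000 counts on library sizes scaled by edgeR's TMM method.

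Summed over the 10 genes, the level was 84.7 ± 3.23 CPM in PC2 joints, 1418 ± 64.7 CPM in Luc joints and 567 ± 18.1 CPM in Non surgery joints (SD, n = 3 each). The sum was thus 16.7-fold lower in PC2 than in Luc joints, 2.50-fold higher in Luc than in Non surgery joints and 6.69-fold lower in PC2 than in Non surgery joints. The comparison of PC2 with Luc joints and that of Luc with Non surgery joints share the Luc libraries, so the folds are given side by side and are not independent. The fold differed between the genes: 7 of the 10 were high in Luc joints by at least 2-fold over both other groups, Il5ra and Siglecf were highest in Luc joints by less than 2-fold over Non surgery joints, and Ccr3 was highest in Non surgery joints.

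**Figure D1:**
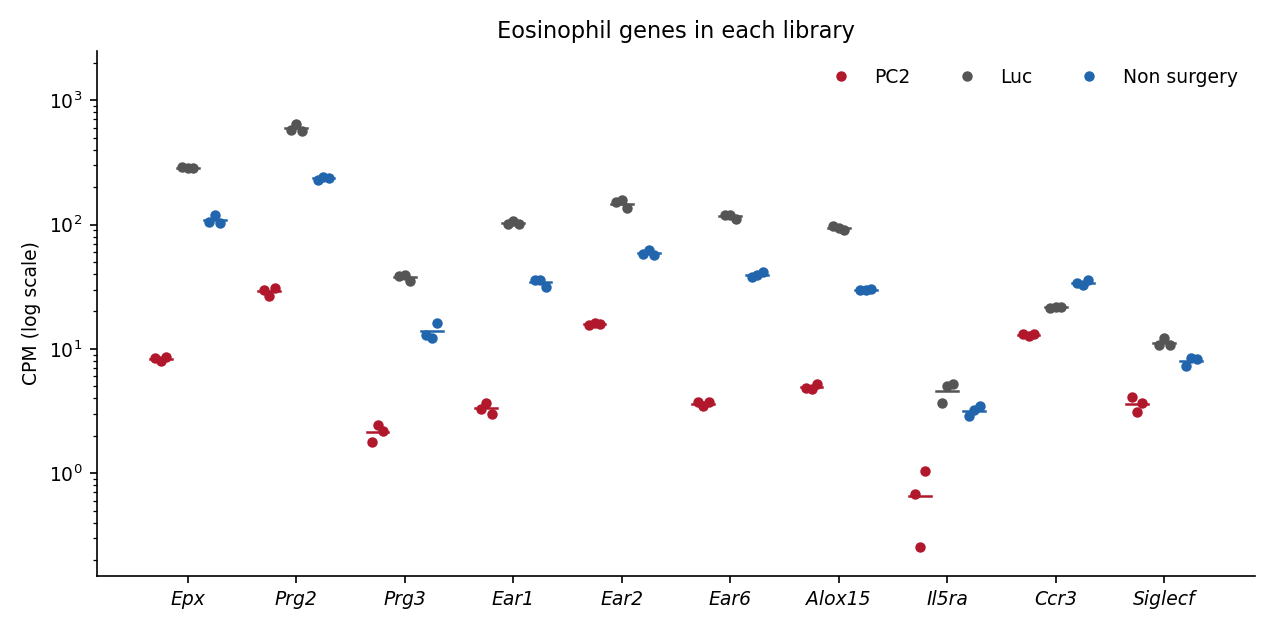
Level of each of the 10 genes in every library, in CPM on a log axis, for PC2, Luc and Non surgery joints. Points are libraries, 3 per group. The libraries of a group lie close together, with Il5ra in PC2 joints spread most, between 0.254 and 1.05 CPM.

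Of the granule proteins, Epx encodes the peroxidase that makes hypohalous acids from hydrogen peroxide (GRCm38, chr11:87864000-87875536, minus strand, 2737 exon bases). Epx stood at 8.38, 8.02 and 8.60 CPM in PC2 joints, against 289, 287 and 287 CPM in Luc joints and 105, 120 and 104 CPM in Non surgery joints. The 3 groups did not overlap for Epx, and the PC2 libraries held 2.90% of the Luc level in the edgeR fit. The log2 difference for Epx was -5.11 ± 0.06 (SE) for PC2 over Luc, the lowest but 2 of the 17478 genes tested, and 1.39 ± 0.05 for Luc over Non surgery. It is the largest fold among the 10 genes between PC2 and Luc joints.

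Prg2, major basic protein, is the most abundant protein of the granule core (GRCm38, chr2:84980461-84983632, plus strand, 838 exon bases). Prg2 stood at 29.9, 26.8 and 31.0 CPM in PC2 joints, against 577, 642 and 562 CPM in Luc joints and 227, 243 and 238 CPM in Non surgery joints. The log2 difference for Prg2 was -4.35 ± 0.06 (SE) for PC2 over Luc and 1.33 ± 0.05 for Luc over Non surgery. Prg3, which lies next to Prg2 on the same strand (chr2:84988215-84993886, 949 exon bases), encodes its homologue and shares 64.3% of aligned coding bases with it. Prg3 stood at 1.78, 2.44 and 2.20 CPM in PC2 joints, against 38.9, 39.2 and 35.1 CPM in Luc joints and 12.9, 12.2 and 16.2 CPM in Non surgery joints. The log2 difference for Prg3 was -4.13 ± 0.13 (SE) for PC2 over Luc and 1.45 ± 0.10 for Luc over Non surgery. The groups of Prg2 and of Prg3 did not overlap. The neighbours kept nearly the same ratio in all groups: Prg3 had 0.0739 counts per Prg2 count in PC2 joints, 0.0636 in Luc joints and 0.0586 in Non surgery joints, with overlapping ranges. Epx had 0.286 counts per Prg2 count in PC2 joints, against 0.486 in Luc joints and 0.464 in Non surgery joints, and there the PC2 libraries did not overlap with the others.

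The 3 Ear genes encode small secreted ribonucleases of the RNase A family, a group expanded in rodents, and lie on chr14. Ear1 covers chr14:43818765-43875517 (minus strand, 730 exon bases), Ear2 chr14:44102654-44103534 (plus strand, 719 exon bases) and Ear6 chr14:51853699-51854643 (plus strand, 945 exon bases). Over the whole coding sequence Ear1 and Ear2 share 95.1% of aligned bases, with 20 substitutions, while Ear1 and Ear6 share 87.4% and Ear2 and Ear6 87.7%. The first 150 coding bases are shown because reads can be assigned to 1 of these genes only where they differ. Capitals mark the 19 positions of this stretch where at least 1 of the 3 genes has another base.
Ear1, chr14:43819260-43819409, minus strand: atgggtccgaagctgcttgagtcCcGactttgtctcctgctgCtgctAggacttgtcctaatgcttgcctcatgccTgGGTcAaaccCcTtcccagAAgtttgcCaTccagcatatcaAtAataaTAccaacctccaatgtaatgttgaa
Ear2, chr14:44102887-44103036, plus strand: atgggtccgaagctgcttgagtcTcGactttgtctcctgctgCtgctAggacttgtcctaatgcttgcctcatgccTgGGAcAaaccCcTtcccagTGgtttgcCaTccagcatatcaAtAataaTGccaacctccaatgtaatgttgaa
Ear6, chr14:51853998-51854147, plus strand: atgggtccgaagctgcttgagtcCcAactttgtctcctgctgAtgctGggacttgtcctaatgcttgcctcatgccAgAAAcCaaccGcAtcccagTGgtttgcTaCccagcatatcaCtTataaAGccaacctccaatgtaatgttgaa
Most of the capitals set Ear6 apart from a pair that is nearly alike. Windows of 50 bases were taken from the longest annotated protein-coding transcript of each gene. Of these, 57.4% of those of Ear1 and 41.5% of those of Ear2 occur unchanged in a transcript of another gene, against 1.07% for Ear6. With windows of 100 bases the shares were 23.9% for Ear1, 13.9% for Ear2 and 0 for Ear6. The sources used here do not state the read length or how reads that match several places were treated. The levels of Ear1 and Ear2 and the split of counts between them are therefore uncertain.

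Ear1 stood at 3.30, 3.70 and 2.99 CPM in PC2 joints, against 102, 107 and 100.4 CPM in Luc joints and 35.6, 35.9 and 31.3 CPM in Non surgery joints. Ear6 stood at 3.72, 3.45 and 3.72 CPM in PC2 joints, against 119, 120.3 and 110.0 CPM in Luc joints and 37.9, 39.6 and 41.4 CPM in Non surgery joints. Ear2 stood at 15.6, 16.2 and 15.8 CPM in PC2 joints, against 151, 157 and 135 CPM in Luc joints and 58.1, 62.0 and 56.7 CPM in Non surgery joints. None of the 3 genes had overlapping groups, but Ear2 was less reduced in PC2 joints than its near-copy. The log2 difference of PC2 over Luc was -4.95 ± 0.08 (SE) for Ear1, -5.00 ± 0.07 for Ear6 and -3.21 ± 0.06 for Ear2. Ear2 had 4.80 counts per Ear1 count in PC2 joints, against 1.43 in Luc joints and 1.72 in Non surgery joints, while Ear6 per Ear1 was 1.10 in PC2 joints, 1.13 in Luc joints and 1.16 in Non surgery joints. All 15 rows of Ear genes and Ear pseudogenes were also counted as 1 sum, which does not depend on how the counted reads were split between them. Reads left uncounted because they match several of these genes would be missing from it too. The sum gave a log2 difference of -4.01 for PC2 over Luc, 1.47 for Luc over Non surgery and -2.54 for PC2 over Non surgery. Set against this sum, Ear1 and Ear6 were further reduced and Ear2 less.

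Alox15 encodes a lipoxygenase that oxygenates arachidonic and linoleic acid, and in the mouse it is also made by resident macrophages (GRCm38, chr11:70344152-70352031, minus strand, 2454 exon bases). Alox15 stood at 4.82, 4.72 and 5.25 CPM in PC2 joints, against 96.6, 94.6 and 91.0 CPM in Luc joints and 29.6, 29.5 and 30.3 CPM in Non surgery joints. The log2 difference for Alox15 was -4.25 ± 0.06 (SE) for PC2 over Luc and 1.66 ± 0.05 for Luc over Non surgery, the highest of the 10 genes in the second comparison. Its groups did not overlap. Against the granule peroxidase, Alox15 had 0.591 counts per Epx count in PC2 joints, 0.327 in Luc joints and 0.274 in Non surgery joints.

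In the edgeR fit the 3 surface receptors had smaller log2 differences between PC2 and Luc joints than the other 7 genes. Over the alternative settings Il5ra ran from -3.29 to -2.40 and Ear2 came up to -3.17, so the order of Il5ra and Ear2 is not settled. Il5ra encodes the ligand-binding chain of the IL-5 receptor, which maintains eosinophils and their precursors (GRCm38, chr6:106710357-106749037, minus strand, 3575 exon bases). Il5ra had 13, 5 and 20 counts in PC2 joints, against 70, 95 and 96 counts in Luc joints and 48, 56 and 58 counts in Non surgery joints. In CPM these were 0.661 ± 0.398 in PC2 joints, 4.61 ± 0.846 in Luc joints and 3.19 ± 0.304 in Non surgery joints (SD, n = 3 each). The groups did not overlap, but at these counts the log2 difference of -2.80 ± 0.29 (SE) for PC2 over Luc is the least precise of the 10, and that of Luc over Non surgery was 0.53 ± 0.23.

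Siglecf encodes a sialic acid receptor that triggers eosinophil death when cross-linked and is also carried by alveolar macrophages (GRCm38, chr7:43351341-43359531, plus strand, 2790 exon bases). Siglecf stood at 4.09, 3.09 and 3.67 CPM in PC2 joints, against 10.8, 12.2 and 10.7 CPM in Luc joints and 7.31, 8.40 and 8.23 CPM in Non surgery joints. The log2 difference for Siglecf was -1.63 ± 0.12 (SE) for PC2 over Luc and 0.49 ± 0.11 for Luc over Non surgery.

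Ccr3, the eotaxin receptor (GRCm38, chr9:124021972-124031689, plus strand, 3272 exon bases), had another order of groups. Ccr3 stood at 13.2, 12.6 and 13.3 CPM in PC2 joints, against 21.3, 21.6 and 21.8 CPM in Luc joints and 34.1, 32.4 and 35.7 CPM in Non surgery joints. No library of Ccr3 in Luc joints reached the lowest Non surgery library, so of the 10 genes Ccr3 alone was lower in Luc than in Non surgery joints. The log2 difference for Ccr3 was -0.73 ± 0.07 (SE) for PC2 over Luc, -0.66 ± 0.06 for Luc over Non surgery and -1.39 ± 0.06 for PC2 over Non surgery. Between PC2 and Luc joints its level in the fit was 1.66-fold lower, against 34.5-fold for Epx. Ccr3 accordingly had 1.56 counts per Epx count in PC2 joints, 0.0749 in Luc joints and 0.314 in Non surgery joints. The same ratio for Siglecf was 0.433 in PC2 joints, 0.0389 in Luc joints and 0.0731 in Non surgery joints, with the 3 groups apart. For Il5ra it was 0.0783 in PC2 joints, with a range of 0.0316 to 0.122, against 0.0160 in Luc joints and 0.0293 in Non surgery joints.

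**Figure D2:**
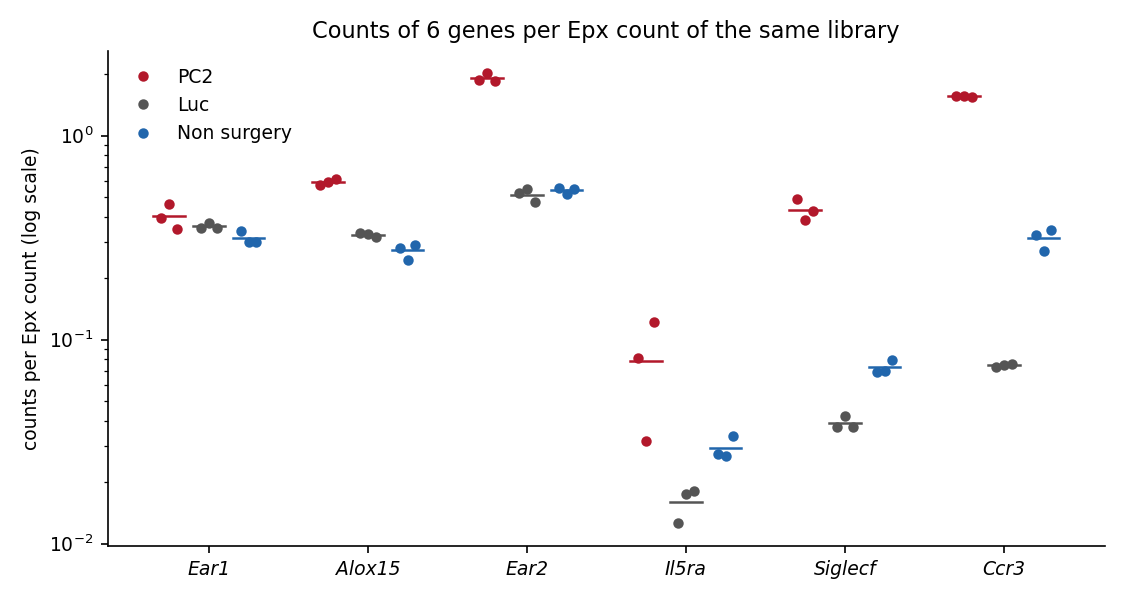
Counts of Ear1, Alox15, Ear2, Il5ra, Siglecf and Ccr3 per count of Epx in every library, on a log axis, for the 3 groups. Each point is a library. Of the genes drawn, the groups are furthest apart for Ccr3, with a mean ratio of 1.56 in PC2 joints, 0.0749 in Luc joints and 0.314 in Non surgery joints. Ear1 stays between 0.300 and 0.462 in the 9 libraries.

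Per kilobase of merged exon length, the order of levels in Luc joints was Prg2 with 709 ± 51.1 CPM per kilobase, Ear2 with 205 ± 15.9, Ear1 with 141 ± 4.67, Ear6 with 123 ± 6.03 and Epx with 105 ± 0.469. Prg3 with 39.7 ± 2.41 and Alox15 with 38.3 ± 1.16 CPM per kilobase followed and differed by less than their spread. Ccr3 with 6.59 ± 0.0704, Siglecf with 4.01 ± 0.299 and Il5ra with 1.29 ± 0.237 CPM per kilobase were lowest. In Non surgery joints the order of the 10 genes was the same, with Prg2 at 282 ± 10.2 and Il5ra at 0.893 ± 0.0851 CPM per kilobase, but Ccr3 at 10.4 ± 0.506 was close to Alox15 at 12.1 ± 0.171. There Ear6 at 41.9 ± 1.86 and Epx at 40.0 ± 3.23 CPM per kilobase differed by less than their spread. In PC2 joints Prg2 at 34.9 ± 2.60 and Ear2 at 22.1 ± 0.401 CPM per kilobase stayed first. They were followed by Ear1 at 4.56 ± 0.490, Ccr3 at 3.97 ± 0.112, Ear6 at 3.84 ± 0.166 and Epx at 3.04 ± 0.108 CPM per kilobase, of which Ccr3 and Ear6 differed by less than their spread. Prg3 at 2.25 ± 0.349 and Alox15 at 2.01 ± 0.114, again within their spread, stood above Siglecf at 1.30 ± 0.178 and Il5ra at 0.185 ± 0.111 CPM per kilobase (SD, n = 3 each). As a share of the sum per kilobase, Ear2 was 28.3% in PC2 joints, 14.9% in Luc joints and 15.4% in Non surgery joints, and Ccr3 was 5.09% in PC2 joints, 0.481% in Luc joints and 1.96% in Non surgery joints.

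Counted together, 9 of the 10 genes were at least 2-fold lower in PC2 than in Luc joints, where 2.28% of all genes tested were, and 8 were at least 4-fold lower, where 0.452% of all genes were. Their median log2 difference was -4.19, beside 0.01 over all genes tested. In all 10 genes every PC2 library lay below every Luc library, as in 24.7% of all genes. Between Luc and Non surgery joints 7 of the 10 were at least 2-fold higher in Luc, where 9.66% of all genes were, with a median of 1.36 beside 0.02 over all genes. In 9 of the 10 every Luc library lay above every Non surgery library, as in 33.1% of all genes, and in the remaining gene, Ccr3, every Luc library lay below, as in 29.8% of all genes. Between PC2 and Non surgery joints all 10 were at least 2-fold lower in PC2, where 6.72% of all genes were, and 7 at least 4-fold lower, where 1.37% of all genes were, with a median of -2.64. In all 10 every PC2 library also lay below every Non surgery library, as in 32.5% of all genes. For scale, 3.31% of all genes passed both an adjusted p of 0.05 and 2-fold in either direction between PC2 and Luc joints, 15.7% between Luc and Non surgery joints and 16.4% between PC2 and Non surgery joints. The genes were chosen for these differences, so nothing is read from these shares.

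The 10 genes differ in how far inside the choice they lie. Epx, with a log2 difference of -5.11 for PC2 over Luc, is furthest inside, and Siglecf with -1.63 and Ccr3 with -0.73 are nearest its edge. Ccr3 does not meet the rise in Luc joints that the choice asked for.

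**Figure D3:**
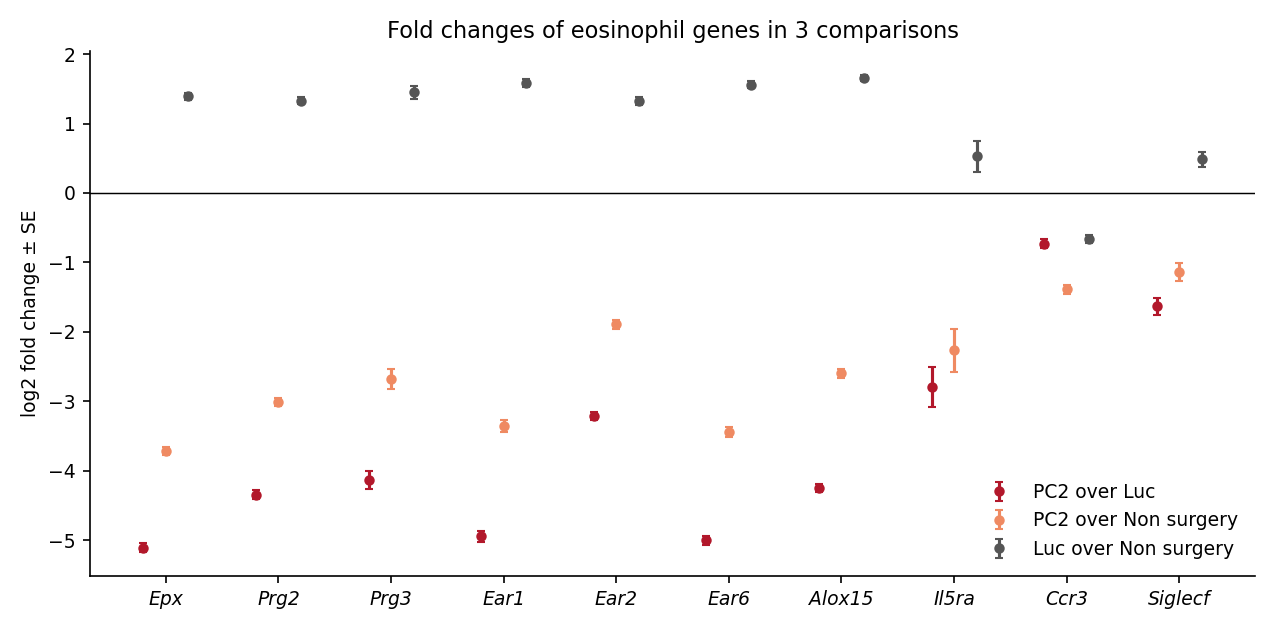
Log2 differences of the 10 genes for PC2 over Luc, Luc over Non surgery and PC2 over Non surgery, from the edgeR fit, with bars of 1 SE. Epx at -5.11 has the lowest value for PC2 over Luc and Ccr3 at -0.73 the highest, and Ccr3 alone is below 0 for Luc over Non surgery.

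Eosinophil genes are known to carry binding sites of GATA factors in their promoters, and GATA1 is required for the lineage. RefSeq (GRCm38.p6) gave a promoter, 250 bases before to 50 bases after the start, for 8 of the 10 genes, with no entry for Prg2 and Alox15. The words AGATAA or AGATAG, and with a leading T the words TGATAA or TGATAG, searched on both strands, occurred in 4 of these 8 promoters, against 29.8% of the 32851 promoters in the table. They were those of Prg3 and of the 3 surface receptors, and 2 of the 8 held a pair of words, against 7.77% of all promoters. The 4 promoters are shown because they hold these words, which stand in capitals.
Prg3, chr2:84987965-84988264, plus strand: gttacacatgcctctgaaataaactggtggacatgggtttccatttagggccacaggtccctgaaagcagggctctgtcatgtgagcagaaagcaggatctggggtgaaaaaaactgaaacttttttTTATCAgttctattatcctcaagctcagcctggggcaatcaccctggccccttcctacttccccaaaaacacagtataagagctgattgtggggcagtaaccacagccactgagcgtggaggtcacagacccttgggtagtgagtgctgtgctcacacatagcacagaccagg
Il5ra, chr6:106748988-106749287, minus strand: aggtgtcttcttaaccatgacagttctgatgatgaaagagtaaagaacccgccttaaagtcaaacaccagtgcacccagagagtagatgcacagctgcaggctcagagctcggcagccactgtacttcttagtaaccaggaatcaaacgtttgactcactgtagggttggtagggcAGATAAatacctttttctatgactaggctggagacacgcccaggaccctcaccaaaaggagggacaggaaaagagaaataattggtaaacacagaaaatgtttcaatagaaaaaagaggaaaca
Ccr3, chr9:124021721-124022020, plus strand: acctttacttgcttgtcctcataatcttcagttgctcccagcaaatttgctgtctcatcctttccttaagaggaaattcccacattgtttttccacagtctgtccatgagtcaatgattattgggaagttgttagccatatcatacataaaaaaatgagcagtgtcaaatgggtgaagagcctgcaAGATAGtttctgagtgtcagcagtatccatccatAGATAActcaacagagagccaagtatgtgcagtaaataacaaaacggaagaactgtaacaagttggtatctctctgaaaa
Siglecf, chr7:43351091-43351390, plus strand: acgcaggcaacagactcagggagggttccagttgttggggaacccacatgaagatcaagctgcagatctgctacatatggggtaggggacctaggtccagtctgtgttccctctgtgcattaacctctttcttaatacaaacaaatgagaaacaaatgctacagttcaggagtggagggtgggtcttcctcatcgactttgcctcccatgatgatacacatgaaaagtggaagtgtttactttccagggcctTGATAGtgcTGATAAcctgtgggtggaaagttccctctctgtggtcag
In Prg3 the word is read on the other strand and begins at -123 from the start site. It begins at -74 in Il5ra, at -64 and -30 in Ccr3 and at 2 and 11 past the start in Siglecf, and no words overlapped. The C/EBP word TTGCNNAA occurred in Ear1 and Ear2, which share 97.0% of promoter bases, and in 10.8% of all promoters, and the PU.1 word GAGGAAGT in none of the 8 and in 3.20% of all promoters. The promoters of Epx, Ear1, Ear2 and Ear6 held no GATA word in this window. A match is a run of letters and was not tested for binding.

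The regulators of eosinophil development (Gata1, Gata2, Cebpa, Cebpe, Spi1, Zfpm1, Id2, Irf8, Xbp1 and Trib1) did not share the depth of the granule genes. Of these 10 regulators, 3 rose, 3 fell and 4 did not pass the test between PC2 and Luc joints (adjusted p under 0.05 over 17478 genes in edgeR's quasi-likelihood test), where 16.1% of all genes rose and 18.6% fell. Their median log2 difference was -0.01. Cebpa, needed for all granulocytes, rose to 55.6 ± 3.18 CPM in PC2 joints, against 38.7 ± 0.805 CPM in Luc joints, a log2 difference of 0.52 ± 0.06 (edgeR adjusted p = 3.98e-06). Trib1, a pseudokinase required for eosinophil identity, fell to 33.3 ± 0.634 CPM in PC2 joints, against 48.9 ± 0.858 CPM in Luc joints, a log2 difference of -0.55 ± 0.05 (edgeR adjusted p = 2.83e-07). Gata2 rose to 22.4 ± 1.45 CPM in PC2 joints, against 17.9 ± 0.848 CPM in Luc joints, a log2 difference of 0.32 ± 0.07 (edgeR adjusted p = 0.00222). Gata1, also the master regulator of red cells and platelets, was at 72.8 ± 2.69 CPM in PC2 joints and 65.4 ± 2.44 CPM in Luc joints. Its log2 difference was 0.15 ± 0.05 (edgeR adjusted p = 0.02), a call that ended without PC2 replicate 3 (adjusted p = 0.0946) or Luc replicate 2 (adjusted p = 0.0947). The fall of Zfpm1, a GATA cofactor, by 0.12 on the log2 scale (edgeR adjusted p = 0.0455) ended in DESeq2 (adjusted p = 0.107) and without any 1 of the PC2 or Luc libraries (adjusted p = 0.0586 to 0.169). Cebpe, which drives granule maturation, was at 41.2 CPM in PC2 joints and 40.5 CPM in Luc joints, a log2 difference of 0.03 ± 0.06 (edgeR adjusted p = 0.786).

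Between Luc and Non surgery joints 1 of the 10 regulators rose, 6 fell and 3 did not pass, where 31.1% of all genes rose and 27.7% fell. With library size as the only scaling, 3 rose and 3 fell, and Cebpe, Xbp1 and Id2 were those whose fall did not pass. In the TMM fit the regulator that rose was Trib1, at 48.9 ± 0.858 CPM in Luc joints and 34.1 ± 1.88 CPM in Non surgery joints, a log2 difference of 0.52 ± 0.05 (edgeR adjusted p = 1.22e-07). Gata2, at 17.9 ± 0.848 CPM in Luc joints and 27.5 ± 1.33 CPM in Non surgery joints, fell by 0.62 on the log2 scale (edgeR adjusted p = 9.66e-07). The Trib1 level of 33.3 ± 0.634 CPM in PC2 joints overlapped with that in Non surgery joints, whereas the granule genes were far lower in PC2 joints.

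The cytokines that act on eosinophils were mostly near the detection limit, and only 3 of 9 passed the filter (Il33, Il4 and Tslp). Il5, the main growth factor, had 13 counts in all over the 9 libraries, and Il3 and Il9 had 0 counts in all 9, where a count of 0 allows a level of up to 0.152 to 0.18 CPM per library (counting error only). None of the 3 tested cytokines passed between PC2 and Luc joints in edgeR or DESeq2, though 1 rose and 1 fell in edgeR at an unadjusted p under 0.05. Il33, an alarmin of stromal and endothelial cells, was at 17.9 ± 1.63 CPM in PC2 joints, 21.1 ± 2.24 CPM in Luc joints and 7.66 ± 1.18 CPM in Non surgery joints. Its log2 difference of PC2 over Luc was -0.24 ± 0.10 (edgeR adjusted p = 0.0699). In edgeR it passed with only those 2 groups in the fit (adjusted p = 0.036) and with no filter on low counts (adjusted p = 0.0288). It also passed with the replicate number as a block (adjusted p = 0.0369) and without Non surgery replicate 1 (adjusted p = 0.0437) or replicate 2 (adjusted p = 0.0467). Tslp, an epithelial alarmin, was at 1.07 ± 0.0497 CPM in PC2 joints and 0.600 ± 0.122 CPM in Luc joints, which did not overlap. The log2 difference of Tslp was 0.83 ± 0.33 (edgeR adjusted p = 0.0619), which passed with only those 2 groups in the fit (adjusted p = 0.0476) and without Non surgery replicate 2 (adjusted p = 0.0438). Between Luc and Non surgery joints 2 of the 3 rose and 0 fell, where 31.1% of all genes rose and 27.7% fell. Il33 rose with a log2 difference of 1.46 ± 0.11 (edgeR adjusted p = 7.67e-09). Il4 was at 2.39, 2.01 and 2.32 CPM in Luc joints and 1.08, 1.96 and 1.08 CPM in Non surgery joints. Its rise in edgeR ended in DESeq2 (adjusted p = 0.0624). It also ended in edgeR without Luc replicate 1 or 3 or Non surgery replicate 1 or 3 (adjusted p = 0.0705 to 0.117).

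The chemokines that bind CCR3 went different ways. Of 5 tested, 1 rose and 3 fell between PC2 and Luc joints, where 16.1% of all genes rose and 18.6% fell, and their median log2 difference was -0.47. Without PC2 replicate 2, 1 rose and 1 fell. Ccl11 (eotaxin-1) was at 5.43 ± 1.03 CPM in PC2 joints and 5.15 ± 1.37 CPM in Luc joints, a log2 difference of 0.07 ± 0.17 (edgeR adjusted p = 0.784), and at 8.05 ± 0.235 CPM in Non surgery joints. Its sign turned to -0.07 when PC2 replicate 3 or Luc replicate 3 was left out. Between Luc and Non surgery joints Ccl11 fell by 0.64 on the log2 scale (edgeR adjusted p = 0.00357). Ccl24 (eotaxin-2), made largely by macrophages, rose to 3.37 ± 0.553 CPM in PC2 joints, against 1.84 ± 0.409 CPM in Luc joints, a log2 difference of 0.88 ± 0.22 (edgeR adjusted p = 0.00574). Ccl24 also rose between Luc and Non surgery joints, at 0.812 ± 0.223 CPM in Non surgery joints, with a log2 difference of 1.17 ± 0.29 (edgeR adjusted p = 0.00223). Ccl7, a monocyte chemokine that also binds CCR3, was the ligand with the Luc-high order: 3.98 ± 0.535 CPM in PC2 joints, 8.16 ± 0.919 CPM in Luc joints and 0.828 ± 0.042 CPM in Non surgery joints. Its log2 difference was -1.03 ± 0.14 for PC2 over Luc (edgeR adjusted p = 2.28e-05) and 3.29 ± 0.19 for Luc over Non surgery (edgeR adjusted p = 1.3e-10). Ccl28, a mucosal chemokine, was at 0.329 ± 0.0654 CPM in PC2 joints and 0.847 ± 0.0921 CPM in Luc joints, a log2 difference of -1.35 ± 0.39 (edgeR adjusted p = 0.0124), and the call ended without PC2 replicate 2 (adjusted p = 0.0546). Ccl5 fell by 0.47 on the log2 scale (edgeR adjusted p = 0.0206), a call that ended without PC2 replicate 2 (adjusted p = 0.0921) or Luc replicate 1 (adjusted p = 0.122).

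The receptor chains and signal transducers around IL-5, IL-3, GM-CSF, IL-33 and IL-4 changed by less than 2-fold between PC2 and Luc joints. Of the 12 genes tested 2 rose, 7 fell and 3 did not pass, beside 16.1% and 18.6% of all genes that rose and fell, and the median was -0.15 on the log2 scale. Csf2rb, the common beta chain that pairs with IL5RA, fell to 69.4 ± 1.01 CPM in PC2 joints, against 85.9 ± 2.05 CPM in Luc joints, a log2 difference of -0.31 ± 0.04 (edgeR adjusted p = 1.1e-05). In Non surgery joints Csf2rb was at 160 ± 3.86 CPM, so that it fell by 0.90 on the log2 scale in Luc joints (edgeR adjusted p = 2.01e-12), an order of groups like that of Ccr3. Il1rl1, the IL-33 receptor, was at 21.6 ± 0.504 CPM in PC2 joints and 27.3 ± 0.740 CPM in Luc joints, and fell by 0.34 on the log2 scale (edgeR adjusted p = 0.000591). The alpha chains of the sister receptors rose: Il3ra by a log2 difference of 0.41 ± 0.09 (edgeR adjusted p = 0.00232) and Csf2ra by 0.19 ± 0.04 (edgeR adjusted p = 0.00319).

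Of 15 tested surface molecules that eosinophils share with other leukocytes, 2 rose and 9 fell between PC2 and Luc joints, beside 16.1% and 18.6% of all genes, with a median log2 difference of -0.21. Itga4, the alpha4 integrin chain, had the largest fall: 86.9 ± 1.35 CPM in PC2 joints and 162 ± 3.74 CPM in Luc joints, a log2 difference of -0.90 ± 0.05 (edgeR adjusted p = 2.68e-09). Its partner Itgb7 fell to 40.5 ± 0.708 CPM in PC2 joints, against 57.9 ± 0.564 CPM in Luc joints, a log2 difference of -0.52 ± 0.07 (edgeR adjusted p = 3.35e-05). Among pan-leukocyte markers 1 of 8 rose and 5 fell, beside the same shares of all genes (16.1% and 18.6%), with a median of -0.15. None rose without PC2 replicate 1, PC2 replicate 2, Luc replicate 1 or Luc replicate 3 in the edgeR fit, while 5 still fell in each. Ptprc (CD45) fell by 0.53 on the log2 scale (edgeR adjusted p = 2.29e-08). The summed pan-leukocyte level was 1837 to 1866 CPM in PC2 joints, against 2136 to 2200 CPM in Luc joints. Its part in the result for the 10 genes was not tested.

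In the lipoxygenase and leukotriene pathway 5 of 12 genes fell in edgeR and 7 did not pass between PC2 and Luc joints, where 18.6% of all genes fell and 16.1% rose. Without PC2 replicate 2, 3 fell. None rose, nor did any in DESeq2 or at an unadjusted p under 0.05 in edgeR, with a median log2 difference of -0.08. The enzyme Alox12e, which lies near Alox15 in the lipoxygenase cluster of chr11 and shares 68.2% of its aligned coding bases, had the order of the granule genes. It had 1, 4 and 2 counts in PC2 joints, against 41, 46 and 32 counts in Luc joints and 16, 18 and 15 counts in Non surgery joints. The log2 difference of Alox12e was -4.04 ± 0.38 for PC2 over Luc (edgeR adjusted p = 6.03e-07) and 1.11 ± 0.27 for Luc over Non surgery (edgeR adjusted p = 0.00182). No 50-base window of the longest protein-coding transcript of Alox15 occurs in a transcript of another gene. Alox5, which starts leukotriene synthesis, fell to 69.7 ± 0.901 CPM in PC2 joints, against 90.7 ± 2.21 CPM in Luc joints, a log2 difference of -0.38 ± 0.04 (edgeR adjusted p = 8.42e-07). Platelet-type Alox12 was at 48.7 ± 0.966 CPM in Luc joints and 141 ± 4.87 CPM in Non surgery joints, and fell by 1.54 on the log2 scale (edgeR adjusted p = 7.79e-15). The cysteinyl leukotriene receptor Cysltr1 rose in Luc joints, by a log2 difference of 1.07 ± 0.17 over Non surgery (edgeR adjusted p = 5.51e-05), while Cysltr2 fell by 1.03 on the log2 scale (edgeR adjusted p = 4.87e-07).

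Of the other genes of the ribonuclease family, only 3 of 10 passed the filter. Rnase6, a ribonuclease of monocytes, fell to 12.0 ± 1.21 CPM in PC2 joints, against 16.5 ± 0.162 CPM in Luc joints, a log2 difference of -0.46 ± 0.09 (edgeR adjusted p = 0.000567). Rnase4, which is made widely, rose to 122 ± 3.72 CPM in PC2 joints, against 101 ± 5.93 CPM in Luc joints, a log2 difference of 0.28 ± 0.04 (edgeR adjusted p = 0.00013). Ear10 had 4 counts over all 9 libraries and Ear14 had 0.

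Markers of other granulocytes and myeloid cells were measured beside the 10 genes. Of 11 tested mast cell and basophil markers 6 rose and 2 fell between PC2 and Luc joints, where 16.1% of all genes rose and 18.6% fell. Between Luc and Non surgery joints 8 fell, where 27.7% of all genes fell and 31.1% rose. The genes differed: Mcpt8 and Prss34 rose in the first comparison and fell in the second, while Hdc, the histamine-forming enzyme, fell in both. None rose in the second comparison, in edgeR at an adjusted or unadjusted p under 0.05 or in DESeq2. The basophil protease Mcpt8 was at 21.2 ± 0.792 CPM in PC2 joints, 14.3 ± 1.31 CPM in Luc joints and 37.6 ± 1.44 CPM in Non surgery joints. Its log2 difference was 0.57 ± 0.07 for PC2 over Luc (edgeR adjusted p = 1.67e-05), and in Luc joints it fell by 1.40 on the log2 scale against Non surgery joints (edgeR adjusted p = 2.91e-11). The basophil protease Prss34 and the IgE receptor chain Ms4a2, shared by both cell types, fell by 1.23 (edgeR adjusted p = 1.82e-12) and by 1.39 (edgeR adjusted p = 5.23e-09) on the log2 scale between Luc and Non surgery joints. The mast cell proteases Mcpt4, Cma1 and Tpsb2 rose at least 2-fold between PC2 and Luc joints, with log2 differences of 1.13 ± 0.20 (edgeR adjusted p = 0.000301), 1.12 ± 0.24 (edgeR adjusted p = 0.00196) and 1.09 ± 0.23 (edgeR adjusted p = 0.0014). In Luc joints these 3 genes had 20 to 47 counts per library. Kit, of the same list, went the other way, at 28.9, 27.5 and 27.2 CPM in PC2 joints, against 36.3, 37.9 and 39.0 CPM in Luc joints. Of 14 neutrophil markers 7 rose and 4 fell between PC2 and Luc joints, where 16.1% of all genes rose and 18.6% fell, none of them by 2-fold. Without Luc replicate 3, 4 rose and 4 fell. Their summed level was 12927 to 13170 CPM in PC2 joints, against 12166 to 12800 CPM in Luc joints and 15657 to 16059 CPM in Non surgery joints. Of 14 monocyte and macrophage markers 2 rose and 7 fell between PC2 and Luc joints, where 16.1% of all genes rose and 18.6% fell. DESeq2 called 1 rise and 5 falls, and in edgeR 1 or 2 rose and 4 or 5 fell when any 1 PC2 or Luc library was left out. These markers had a summed level of 1152 to 1164 CPM in PC2 joints and 1217 to 1242 CPM in Luc joints. Between Luc and Non surgery joints Cx3cr1, the fractalkine receptor, rose by a log2 difference of 1.44 ± 0.12 (edgeR adjusted p = 1.45e-08), and Cd163, a haemoglobin scavenger receptor, fell by 1.79 on the log2 scale (edgeR adjusted p = 1.03e-13). No gene of these 3 lists was at 0 in every library. Their part in the result for the 10 genes was not tested.

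Eosinophils are a known source of IL-4, which acts on macrophages, and type 2 lymphocytes make IL-5. Of 5 tested genes of macrophages activated by IL-4 and IL-13, 4 rose and 1 fell between PC2 and Luc joints, where 16.1% of all genes rose and 18.6% fell. DESeq2 called 3 rises and 1 fall, as did edgeR with library size only or with no filter on low counts. The edgeR counts were the same without PC2 replicate 2 or 3, Luc replicate 1 or 3, or Non surgery replicate 3. Between Luc and Non surgery joints 4 rose and 1 fell, where 31.1% of all genes rose and 27.7% fell. Retnla, a secreted protein of such macrophages, was at 9.64 ± 0.771 CPM in PC2 joints, 7.21 ± 0.368 CPM in Luc joints and 2.76 ± 0.119 CPM in Non surgery joints. Its log2 difference was 0.42 ± 0.10 for PC2 over Luc (edgeR adjusted p = 0.00481) and 1.38 ± 0.13 for Luc over Non surgery (edgeR adjusted p = 7.84e-08), so its order of groups was not that of the 10 genes. Chil3, also abundant in neutrophil precursors, was at 616 ± 9.63 CPM in PC2 joints, 567 ± 10.8 CPM in Luc joints and 1541 ± 59.3 CPM in Non surgery joints, and fell by 1.44 on the log2 scale between Luc and Non surgery joints (edgeR adjusted p = 4.49e-16). Socs2, a feedback inhibitor of cytokine signalling, was the gene of this list that was high in Luc joints: 29.4 ± 2.52 CPM in PC2 joints, 44.4 ± 0.963 CPM in Luc joints and 17.1 ± 1.03 CPM in Non surgery joints. Its log2 difference was -0.60 ± 0.06 for PC2 over Luc (edgeR adjusted p = 1.83e-06) and 1.38 ± 0.07 for Luc over Non surgery (edgeR adjusted p = 1.81e-11). Of 6 tested type 2 lymphocyte markers 1 rose and 3 fell between PC2 and Luc joints, beside 16.1% and 18.6% of all genes. In Luc against Non surgery joints 1 rose and 4 fell, beside 31.1% and 27.7% of all genes. That rise was not called in DESeq2, nor in edgeR without Luc replicate 2 or 3 or without Non surgery replicate 2 or 3. Cd4, the helper T cell co-receptor, was at 20.9 ± 1.31 CPM in PC2 joints, 11.1 ± 0.850 CPM in Luc joints and 34.2 ± 1.77 CPM in Non surgery joints. Its log2 difference was 0.92 ± 0.08 for PC2 over Luc (edgeR adjusted p = 1.98e-07), and it fell by 1.63 on the log2 scale between Luc and Non surgery joints (edgeR adjusted p = 1.08e-11). Cd4 was the 1 gene of this list that rose between PC2 and Luc joints, where the list median was -0.16.

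**Figure D4:**
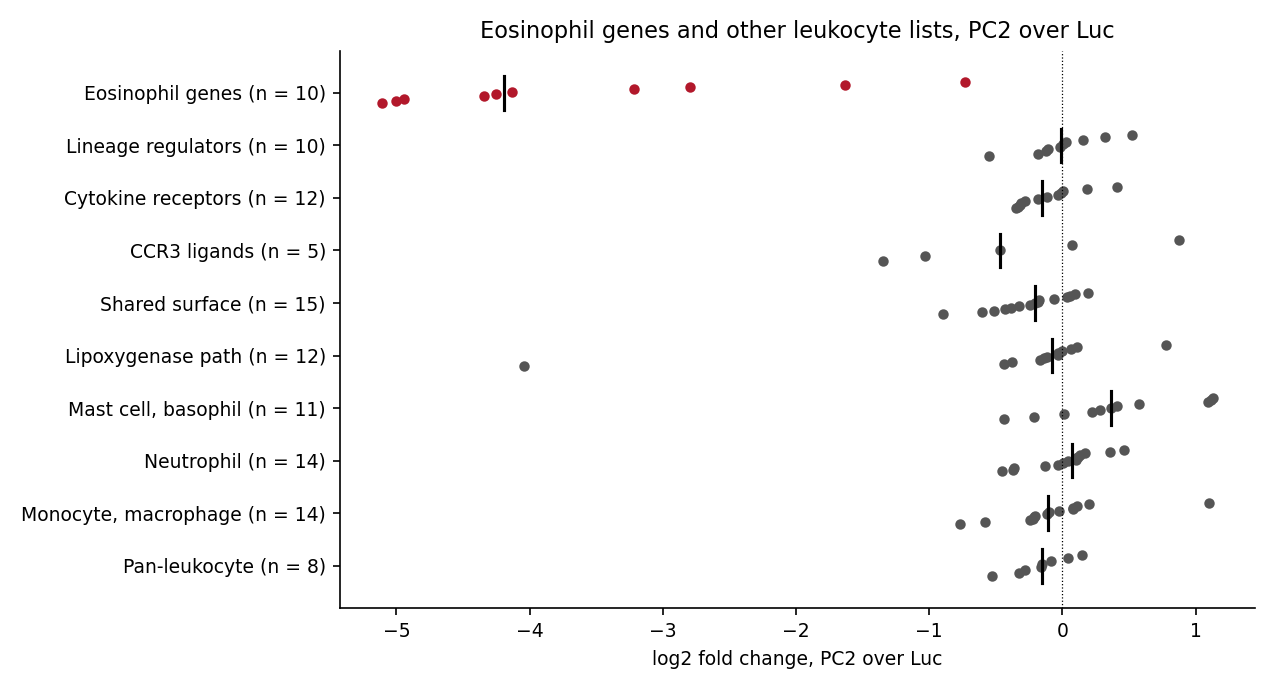
Log2 difference of PC2 over Luc for the 10 genes and for the tested genes of 9 other lists, from the edgeR fit. Points are genes and bars are list medians. The median of the 10 genes is -4.19, and those of the lineage regulators, cytokine receptors and neutrophil markers are -0.01, -0.15 and 0.07.

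Over all genes tested, 113 (0.647%) averaged at least 1 CPM in Luc joints and were at least 2-fold higher there than in both other groups, and 7 of these are among the 10 described here. Likeness to the 10 genes was measured as the distance, in log2 units, to their median in the plane of the differences for PC2 over Luc and Luc over Non surgery. Nearest was Alox12e at a distance of 0.292, with a Pearson r of 0.98 to the mean profile of the 10 over the 9 libraries. The libraries are 3 pools, and all these genes were picked for a high level in Luc joints, so each r is a description. The next genes stood far off: Tex11, a meiosis gene, at 1.45 (r = 0.852), and the olfactory receptor genes Olfr809 at 1.59 (r = 0.800) and Olfr810 at 2.16 (r = 0.689). Tex11 had 0 to 2 counts per library in PC2 joints and 20 to 21 in Luc joints, so its position rests on few counts. They were followed by F2rl1 at 2.42 (r = 0.686), Il6 at 2.46 (r = 0.570), Tac1 at 2.54 (r = 0.577), Iigp1 at 2.64 (r = 0.530), Zkscan16 at 2.68 (r = 0.511) and Ccl22 at 2.70 (r = 0.826). Il6, the inflammatory cytokine, was at 1.19 ± 0.175 CPM in PC2 joints, 5.45 ± 1.27 CPM in Luc joints and 0.786 ± 0.169 CPM in Non surgery joints. Iigp1, an interferon-induced GTPase, was at 17.9 ± 0.884 CPM in PC2 joints, 60.1 ± 3.29 CPM in Luc joints and 11.7 ± 1.12 CPM in Non surgery joints. In both genes the PC2 level lay above the Non surgery level, which passed for Iigp1 (edgeR adjusted p = 3.55e-06) but not for Il6 (edgeR adjusted p = 0.106). In the granule and Ear genes the PC2 level lay far below.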

How the data were processed

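Total RNA of mixed knee joints was sequenced in 3 technical repeats per group, per the labels' protocols (TRIzol, NEBNext Ultra kit). The values are raw read counts per Ensembl gene ID deposited by the authors, 1 table per library. HISAT2, HTSeq, DESeq2 and mm10 are named without versions in the submitters' processing notes; the sources used here do not state the annotation release, strand setting or read filters. Lines for reads in no gene (7.29% to 9.25%) or in several genes (5.72% to 6.65%) stayed out of library sizes and tests, so genes with overlapping exons can be undercounted; of the 10 genes, Ear1 overlaps Ear-ps9 by 17 exon bases. Symbols, coordinates and merged exon lengths came from GENCODE M21 (GRCm38), which holds 53274 of the 53379 IDs.

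Counts were fitted with edgeR 4.0.16 in R 4.3.3: all 9 libraries, a group factor, TMM factors, a filterByExpr minimum count of 10 (17478 genes), quasi-likelihood tests, two-sided, and Benjamini-Hochberg adjustment over all genes. SE is the size of the log2 difference over the square root of F. DESeq2 1.42.0 was an alternative. No pair of libraries of a group agreed within counting noise (chi-square per degree of freedom 3.94 to 8.67). In 5 simulations of counts for PC2 against Luc (17171 to 17184 genes) the fit recovered 62% to 70% of 1.5-fold, 74% to 88% of 2-fold, 92% to 98% of 4-fold and 96% to 100% of 8-fold changes, with 7 to 19 false calls. The 10 genes and the gene lists were chosen with earlier results of these data known. Named are all 10 genes, list members past an adjusted p of 0.05 and 2-fold (at most 4 per list and comparison) or of the regulator, cytokine, ligand, receptor and ribonuclease lists, and the 10 genes nearest in pattern; some results of this rule are not reported here. Itga4, Itgb7, Ptprc, Alox5 and Kit were named after their values were seen.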

Additional observations from a re-analysis of the deposited data

How the results depend on the processing

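The 10 genes kept the sign of all 459 values computed for them over the 3 comparisons and their alternative settings. They were chosen for these differences and their libraries did not overlap between groups. A sign could therefore hardly change, and nothing is read from this. The median log2 difference of the 10 genes for PC2 against Luc was -4.19, with a range of -4.23 to -4.13 when each library was left out. For Luc against Non surgery it was 1.36 (1.34 to 1.39 with libraries left out) and 1.52 with library size as the only scaling. For PC2 against Non surgery it was -2.64 (-2.74 to -2.57) and -2.48 with library size only. Under that scaling the all-gene median shifted to 0.18 instead of 0.02 for Luc against Non surgery and to 0.17 instead of 0.01 for PC2 against Non surgery, and at least 2-fold calls in Luc against Non surgery from 1648 higher and 1104 lower to 2065 and 824, and in PC2 against Non surgery from 1718 and 1142 to 2122 and 834.

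Calls past 2-fold numbered 578 for PC2 against Luc (534 to 591 with libraries left out), 2752 for Luc against Non surgery (2707 to 2748) and 2860 for PC2 against Non surgery (2768 to 2858). DESeq2 gave 494, 2646 and 2746, and no filter on low counts 740, 3227 and 3386. Same-numbered libraries did not deviate together (correlations -0.03 to 0.06), so the numbers do not pair them; with the replicate number as a block the medians of the 10 genes were -4.19, 1.36 and -2.64 and the counts 577, 2744 and 2852.

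Of 2250 values for 150 results on list genes, 73 lost the call, 7 gained it and 4 changed sign. The signs that turned were those of Ccl11 for PC2 against Luc (-0.067 without PC2 replicate 3 and without Luc replicate 3, in a range of -0.067 to 0.31 with libraries left out), Cebpe (-0.014 without Luc replicate 3, in a range of -0.014 to 0.055), none of them a call, and that of Irf8 for PC2 against Non surgery, a fall of -0.16 (adjusted p = 0.00377) that stood at 0.0026 (adjusted p = 0.961) with library size only. The cause was not tested. With library size only, the Luc against Non surgery falls of Cebpe (adjusted p = 0.425), Xbp1 (adjusted p = 0.888), Id2 (adjusted p = 0.602) and Kit (adjusted p = 0.997) did not pass, nor did the PC2 against Non surgery falls of Gata1, Gata2, Cebpe, Spi1, Xbp1, Id2, Il1rl1 and Ccl5. Depth limits Il5ra in PC2 joints (5 to 20 counts) and the cytokine genes with few counts.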
